A study of Mus musculus with 6 samples.

Results

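The 9 genes described here are transcription factors that set or keep the identity of microglia and other macrophages: *Sall1*, *Sall3*, *Spi1*, *Irf8*, *Mef2a*, *Mef2c*, *Runx1*, *Maf* and *Cebpa*. They were chosen by name for their known roles, are 9 of the 32285 genes in the count tables, and were each found once by symbol. Their unique molecular identifiers (UMIs, each standing for 1 captured transcript) were followed across microglia, border macrophages and neutrophils and across 6 single-cell RNA-seq libraries. The cells came from the whole brains of 3 male C57BL/6J mice at postnatal day 89, dissociated by cold Dounce homogenization, a mechanical method without enzymes, and sorted as live CD45+/CD11b+ cells. Mouse 2 was processed with a cocktail of inhibitors of transcription and translation, actinomycin D, triptolide and anisomycin (group INHIB), and mice 1 and 3 without it (group NONE). From each mouse 1 library was made with the 10X Genomics V3.0 kit and another with V3.1. Only 1 mouse received the cocktail, so its effect and that of the animal cannot be told apart.

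*Spi1* encodes PU.1, an ETS-family factor that opens enhancers in all myeloid cells, and IRF8 binds composite DNA elements together with it. RUNX1 and C/EBPα act earlier, in blood stem cells and in the choice between granulocyte and monocyte fates, and RUNX1 also marks the yolk sac progenitors from which microglia descend. MEF2 factors and MAF take part in the programs of mature tissue macrophages, and the zinc finger protein SALL1 is a factor of microglia among brain macrophages, needed to hold them in their resting state.

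The libraries held 29412 cell barcodes and 83133615 UMIs. For mice 1, 2 and 3 the totals were 15109090, 17006892 and 6275898 UMIs with V3.0 and 11175790, 14693129 and 18872816 UMIs with V3.1. The V3.0 library of mouse 3 stood apart from the others. In it 21.5% of the barcodes passed the limits on genes, UMIs and mitochondrial share, against 70.0% to 76.8% in the other libraries, and its median was 809 UMIs per barcode. Calls and counts of factors are given with and without it. Any pair of libraries shared between 1 and 14 barcodes, at most 0.295% of either library.

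A cell was assigned to a type when at least 3 of the 8 markers of that type had a UMI and when these were at least 2 more than for any other type. None of the 9 factors was used as a marker. The 19725 passing cells gave 19042 microglia (68997355 UMIs, median 3511 per cell), 26 border macrophages (107751 UMIs, median 3508.5) and 282 neutrophils (1722240 UMIs, median 5724.5). Mice 1, 2 and 3 gave 9, 12 and 5 border macrophages and 112, 97 and 73 neutrophils. A further 105 cells were monocytes and 5 lymphocytes, 174 cells stayed without a type, and 91 reached the minimum for more than 1 type without a sufficient lead and were left out. No doublet caller was run.

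Markers kept out of the assignment were also read. *Dab2*, *Clec4n*, *Ms4a6c*, *Wfdc17* and *Cd209f*, markers of border macrophages, summed to 2747 counts per 1e6 UMIs (CPM) in border macrophages, 80.4 in microglia and 172 in neutrophils. In monocytes *Ms4a6c* stood at 1336 CPM and *Wfdc17* at 1211, above border macrophages at 900 and 575, so these 2 markers do not set border macrophages apart from monocytes, while *Dab2* stood at 1049 CPM in border macrophages and had 0 UMIs in monocytes. Neutrophil markers, *Csf3r*, *Il1r2*, *Slpi*, *G0s2* and *Mmp9*, summed to 4079 CPM in neutrophils, 187 in microglia and 65.0 in border macrophages. *Csf3r* stood at 177 CPM in microglia, in 44.6% of cells, and at 222 CPM in neutrophils, so it made up most of the microglial sum and hardly set these types apart. Of the microglial ones, *Cx3cr1* stood at 4185, 937 and 30.2 CPM in microglia, border macrophages and neutrophils, *Selplg* at 3047, 223 and 269, *Ltc4s* at 919, 501 and 14.5 and *Slc2a5* at 296, 0 and 2.90. All 4 were highest in microglia, and *Selplg* was higher in neutrophils than in border macrophages.

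Markers of a type also had UMIs in other types. The 8 microglial assignment markers summed to 15527 CPM in microglia and 120 in neutrophils, a 130-fold difference, and single markers ran from 46.9-fold for *P2ry13* to 164-fold for *Sparc*. In border macrophages they summed to 1745 CPM, 7 of the 8 had a UMI, *Fcrls* was the most abundant at 1030 CPM and *Tmem119* had 0 UMIs. The 8 border macrophage markers summed to 6905 CPM in border macrophages, 273 in microglia, where *Stab1* alone stood at 261 CPM and was found in 54.8% of cells, and 15.7 in neutrophils. In border macrophages of the V3.0 library of mouse 3 they summed to 2498 CPM, against 5607 to 11142 in the other libraries. *F13a1* stood at 733 CPM in border macrophages and at 650 in monocytes, in 61.0% of them. The rest of the list stood at 10.4 CPM or lower in monocytes. The 8 neutrophil markers summed to 430551 CPM in neutrophils, 43.1% of their UMIs, 906 CPM in microglia and 566 CPM in border macrophages. Monocyte markers summed to 251 CPM in border macrophages, with *Ccr2* most abundant (16 of the 27 UMIs came from the V3.0 library of mouse 3, and without it the sum was 122 CPM), 23.9 in microglia and 3195 in neutrophils, most of it *Chil3*. Lymphocyte markers summed to 42.8 CPM in microglia, 46.4 in border macrophages and 20.3 in neutrophils.

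Markers of cells outside the sort were also read. Neuronal markers summed to 1.84 CPM in microglia and had 0 UMIs in border macrophages and neutrophils. Oligodendrocyte markers summed to 50.5 CPM in microglia, 44.7 in neutrophils and 0 in border macrophages. Astrocyte markers summed to 222 CPM in microglia, nearly all of it *Slc1a3* (221 CPM, in 49.7% of cells), 18.6 in border macrophages and 1.16 in neutrophils. Endothelial markers summed to 24.7, 0 and 2.90 CPM and erythroid markers to 2.38, 0 and 2.32 CPM in microglia, border macrophages and neutrophils. Of the erythroid UMIs in microglia 150 came from the V3.1 library of mouse 2 (12.2 CPM), and the other libraries held 0 to 8 each.

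The comparison of cell types asks in which of the myeloid types each factor is higher. UMIs were summed per mouse and type, and the 9 sums were fitted together by edgeR's quasi-likelihood test with the mouse as a block. All 9 factors passed the filter on low counts, which left 7756 genes. *Sall1* and *Sall3* could pass it through their microglial counts alone. A gene was called where its adjusted p was below 0.05 and its log2 fold change larger than 0.58 in either direction.

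In neutrophils 8 of the 9 factors were lower than in microglia and 1, *Spi1*, was higher, where 35.9% of all tested genes were called lower and 29.8% higher. Without *Sall1* and *Sall3*, 6 of 7 were lower. The median log2 fold change was −4.36 over the 9 factors, also with ratios or bounds in place of the fitted values of scarce genes, and −0.24 over all genes. In border macrophages 5 factors were called lower than in microglia (*Sall1*, *Sall3*, *Mef2a*, *Irf8* and *Mef2c*) and 0 higher, where 6.38% of all genes were called lower and 4.64% higher. Without *Sall1* and *Sall3*, which had 0 UMIs there, 3 of 7 factors were called lower. At an unadjusted p below 0.05 edgeR placed 1 factor, *Maf*, higher in border macrophages, and DESeq2 called 0 factors higher and 1, *Mef2a*, lower, where it called 6.88% of all genes higher and 2.51% lower. With RLE factors the shares were 5.13% higher and 4.44% lower, and by the larger UMI sum 9.08% and 7.43%, so the direction held by more of the called genes depended on the method. The median over the 9 factors was −0.66, also with bounds, and −0.53 over all genes. Between border macrophages and neutrophils 6 factors were called higher in border macrophages and 1, *Spi1*, lower, where 12% of all genes were called higher and 22.4% lower. The median was 2.10 over the 7 factors for which a fold could be given (1.08 over the fitted values of all 9) and −0.38 over all genes.

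The values for neutrophils, whose 8 markers took 43.1% of their UMIs, moved with the scaling. With library totals and no scaling factor, an alternative chosen after seeing the data, the median of all genes moved from −0.24 to −1.77 for neutrophils against microglia and from −0.38 to 1.17 for border macrophages against neutrophils. The shares of all genes called then became 74.8% lower and 11.8% higher for neutrophils against microglia, beside 8 factors lower and 0 higher, and 6.38% lower and 29.9% higher for border macrophages against neutrophils, beside 1 factor lower and 6 higher. With RLE factors, another scaling, the medians of border macrophages moved to −0.37 against microglia and −0.18 against neutrophils. Under all 3 scalings 8 factors were lower and *Spi1* higher in neutrophils than in microglia, though *Spi1* missed the fold threshold with library totals. Between border macrophages and microglia *Runx1* alone among the 9 changed sign with the scaling. Without the V3.0 library of mouse 3 all 9 factors were called between neutrophils and microglia, where 65.2% of all genes were called. Then 5 factors were called between border macrophages and neutrophils, where 30.2% of all genes were called. Between border macrophages and microglia 3 factors were called, *Mef2a* beside *Sall1* and *Sall3*, where 6.42% of all genes were called.

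**Figure D1:**
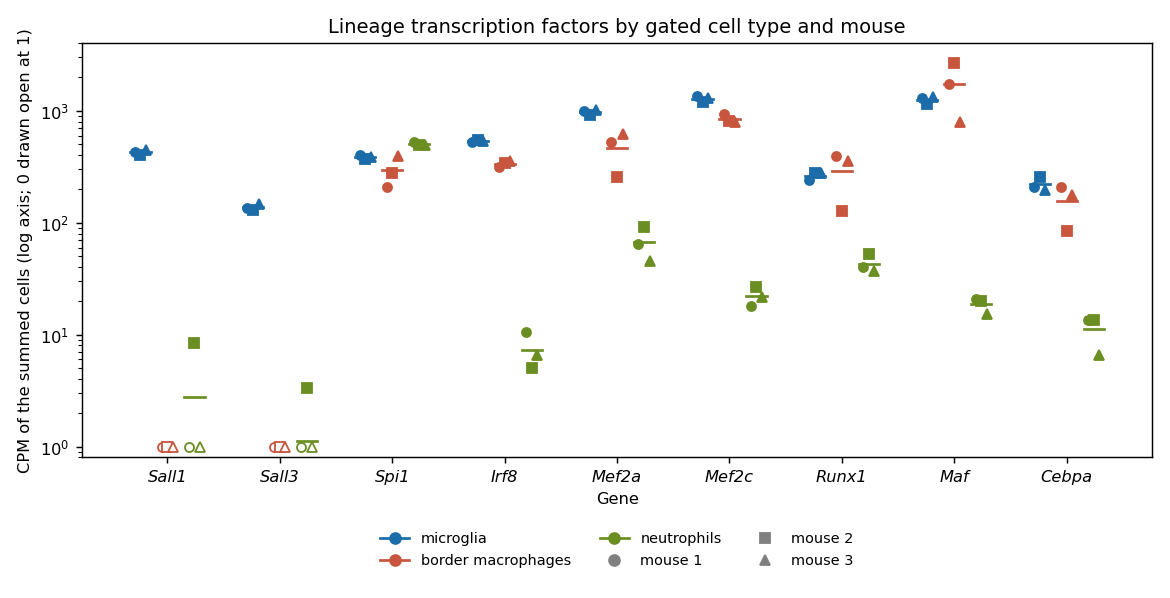
Level of each factor (CPM, vertical axis, logarithmic) in microglia, border macrophages and neutrophils, with 1 point per mouse, a short line at the mean of the mice and values of 0 drawn open at 1. *Sall1* and *Sall3* had 0 UMIs in the border macrophages of all 3 mice, and *Spi1* was above its microglial level in the neutrophils of all 3 mice.

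*Sall1* (ENSMUSG00000031665, GRCm38 chromosome 8, 89027235 to 89044162, minus strand) encodes the zinc finger repressor that marks microglia. It stood at 432, 404 and 445 CPM in the microglia of mice 1, 2 and 3, at 0 in the border macrophages of each, and at 0, 8.39 and 0 CPM in their neutrophils. Microglia were high in every mouse and overlapped with neither other type. Its microglial mean was 427 ± 21.2 CPM (SD, n = 3 mice). A floor of 3 UMIs over all border macrophages corresponds to 27.8 CPM, so *Sall1* was at least 15.3-fold lower there than in microglia. The bound was 12.8-fold without the V3.0 library of mouse 3, 9.79-fold without mouse 1, 8.87-fold without mouse 2, 7.34-fold with thinned cells, 9.65-fold with V3.0 libraries alone and 5.39-fold with V3.1 libraries alone. In neutrophils 5 UMIs were counted, all in mouse 2, and the pooled ratio of microglia to neutrophils was 146 (exact 95% counting interval 62.7 to 451). Whether these UMIs came from free RNA was not tested.

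*Sall3* (ENSMUSG00000024565, chromosome 18, 80966376 to 80986771, minus strand), a paralog of *Sall1*, stood at 134, 130 and 147 CPM in the microglia of mice 1, 2 and 3, at 0 in all border macrophages, and at 0, 3.36 and 0 CPM in neutrophils. It too was high in the microglia of each mouse, with no overlap with neutrophils. In the border macrophages of mice 1, 2 and 3 a floor of 3 UMIs corresponds to 78.8, 63.8 and 133 CPM. In mouse 3 that floor was above the microglial level of mouse 2, so overlap with border macrophages cannot be judged mouse by mouse. The microglial mean was 137 ± 8.88 CPM (SD, n = 3), and the gene was at least 4.90-fold lower in border macrophages, or at least 4.10-fold without the V3.0 library of mouse 3. The bound was 3.20-fold without mouse 1, 2.84-fold without mouse 2, 2.37-fold with thinned cells, 3.20-fold with V3.0 libraries alone and 1.69-fold with V3.1 libraries alone. Neutrophils held 2 UMIs, a pooled ratio of 117 (32.5 to 970).

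The border macrophage counts of both genes were read again with a looser rule, also chosen after seeing the data, that assigned cells by the larger sum of marker UMIs. It gave 63 border macrophages, 15, 36 and 12 in mice 1, 2 and 3, with 287991 UMIs. *Sall1* then had 3 UMIs in 2 of the 63 cells (3.17%, exact Clopper-Pearson 95% interval 0.387 to 11.0), and *Sall3* had 0, at least 13.1-fold lower than in microglia. With at most 1 marker of any other type allowed, only 4 border macrophages were left, 0 of them from mouse 1. *Sall1* again had 0 UMIs in them, which bounds the difference at 1.90-fold, and *Sall3* could not be bounded. The calls of both genes against microglia compare with a count of 0, so the bounds are given in place of a tally of calls. DESeq2 called neither (Benjamini-Hochberg adjusted p = 0.135 for *Sall1* and 0.141 for *Sall3*, with 0 UMIs in the border macrophages of 3 of 3 mice).

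*Spi1* (ENSMUSG00000002111, chromosome 2, 91082390 to 91115756, plus strand), the gene of PU.1, was measured in every type. It stood at 403, 374 and 386 CPM in the microglia of mice 1, 2 and 3, at 210, 276 and 398 CPM in border macrophages and at 523, 490 and 498 CPM in neutrophils. Neutrophils were above microglia in all 3 mice with no overlap, while border macrophages overlapped with microglia. The means were 504 ± 17.3 CPM in neutrophils, 388 ± 14.8 in microglia and 295 ± 95.1 in border macrophages (SD, n = 3), and the last 2 did not differ beyond their spread. *Spi1* rose by 1.88 on the log2 scale in neutrophils against microglia (standard error, SE, of 0.16 and adjusted p = 1.28e-30 by edgeR's quasi-likelihood test, Benjamini-Hochberg adjusted, higher in 3 of 3 mice). With library totals the value was 0.35 (adjusted p = 0.000749, range over the alternatives 4.90e-70 to 0.000749, same test, 3 of 3 mice). Against neutrophils *Spi1* was lower in border macrophages, at −2.42, or −0.83 with library totals, in 3 of 3 mice. Its difference between border macrophages and microglia, −0.54, was not called. The 105 monocytes, which carry no test, held *Spi1* at 673, 784 and 632 CPM in mice 1, 2 and 3.

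*Irf8* (ENSMUSG00000041515, chromosome 8, 120736358 to 120756694, plus strand) encodes the partner of PU.1. It stood at 528, 546 and 534 CPM in the microglia of mice 1, 2 and 3, at 315, 340 and 353 CPM in border macrophages and at 10.5, 5.03 and 6.56 CPM in neutrophils. The 3 types took the same order in each mouse and did not overlap. The means were 536 ± 9.47, 336 ± 19.5 and 7.35 ± 2.80 CPM (SD, n = 3). *Irf8* fell by 4.64 on the log2 scale in neutrophils against microglia (SE 0.26, adjusted p = 8.34e-72 by edgeR's quasi-likelihood test, Benjamini-Hochberg adjusted, lower in 3 of 3 mice). From pooled UMIs, microglia held 71.1-fold more than neutrophils (41.6 to 134). Whether the 13 neutrophil UMIs came from free RNA was not tested. In border macrophages *Irf8* fell by 0.75 against microglia (SE 0.25, adjusted p = 0.0319 by edgeR's quasi-likelihood test, Benjamini-Hochberg adjusted, lower in 3 of 3 mice). That call held in 3 of 16 alternatives, with adjusted p from 0.0193 to 0.327 by the same test or DESeq2's, and not without the V3.0 library of mouse 3 (−0.77, adjusted p = 0.211, 3 mice) nor without any 1 of the 3 mice. Against neutrophils border macrophages were higher by 3.89 in 3 of 3 mice. That difference was called in 15 of 16 alternatives, with values from 2.3 to 5.5.

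Of the MEF2 pair, *Mef2a* (ENSMUSG00000030557, chromosome 7, 67231163 to 67372858, minus strand) gave the border macrophage difference that held most often. *Mef2a* stood at 990, 907 and 1021 CPM in the microglia of mice 1, 2 and 3, at 525, 255 and 618 CPM in border macrophages and at 64.3, 92.3 and 45.9 CPM in neutrophils. Each border macrophage value was below every microglial value and above every neutrophil value. The means were 973 ± 58.7, 466 ± 189 and 67.5 ± 23.4 CPM (SD, n = 3). *Mef2a* fell by 1.24 on the log2 scale in border macrophages against microglia (SE 0.26, adjusted p = 2.79e-05 by edgeR's quasi-likelihood test, Benjamini-Hochberg adjusted, lower in 3 of 3 mice). It was called in all 16 alternatives, with adjusted p from 9.63e-07 to 0.0163 by that test or DESeq2's, at −1.54 without the V3.0 library of mouse 3 and from −3.44 with at most 1 marker of another type to −0.59 by the larger UMI sum, close to the threshold. In neutrophils it fell by 2.32 against microglia, in 3 of 3 mice, with a pooled ratio of 14.0 (11.7 to 16.9). Border macrophages stood 1.08 above neutrophils in 3 of 3 mice (adjusted p = 0.00338 by edgeR's quasi-likelihood test, Benjamini-Hochberg adjusted, range 1.81e-14 to 0.576). This difference was not called in 6 of 16 alternatives. Among these were leaving out the V3.0 library of mouse 3 (0.82), mouse 1 (0.90) or mouse 3 (0.74). With at most 1 marker of another type the value turned to −0.88.

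*Mef2c* (ENSMUSG00000005583, chromosome 13, 83504034 to 83667080, plus strand), the paralog that restrains inflammatory responses of microglia, stood at 1343, 1198 and 1306 CPM in the microglia of mice 1, 2 and 3, at 945, 808 and 795 CPM in border macrophages and at 17.9, 26.9 and 21.9 CPM in neutrophils. The types again took 1 order in each mouse with no overlap. The means were 1282 ± 75.6, 849 ± 83.2 and 22.2 ± 4.47 CPM (SD, n = 3). In border macrophages *Mef2c* fell by 0.66 against microglia (SE 0.22, adjusted p = 0.0253 by edgeR's quasi-likelihood test, Benjamini-Hochberg adjusted, lower in 3 of 3 mice). It was called in 6 of 16 alternatives (adjusted p 0.00254 to 0.339), and not without the V3.0 library of mouse 3 (−0.54, adjusted p = 0.339 by the same test, 3 mice), without mouse 1 (−0.68) or without mouse 3 (−0.59). In neutrophils *Mef2c* fell by 4.36 against microglia, with a pooled ratio of 57.8 (42.1 to 81.7). Border macrophages exceeded neutrophils by 3.70 on the log2 scale, in 3 of 3 mice.

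*Maf* (ENSMUSG00000055435, chromosome 8, 115682942 to 115707794, minus strand) encodes c-MAF, a basic leucine zipper factor of resident macrophages. It stood at 1291, 1142 and 1318 CPM in the microglia of mice 1, 2 and 3, at 1733, 2658 and 795 CPM in border macrophages and at 20.9, 20.1 and 15.3 CPM in neutrophils. Border macrophages were above microglia in mice 1 and 2 and below them in mouse 3, so that these types overlapped, and neutrophils were below both in every mouse. The means were 1729 ± 931, 1250 ± 94.9 and 18.8 ± 3.05 CPM (SD, n = 3). *Maf* was not called between border macrophages and microglia, at 0.44 on the log2 scale (SE 0.19, adjusted p = 0.143 by edgeR's quasi-likelihood test, Benjamini-Hochberg adjusted, higher in 2 of 3 mice). It was called higher with RLE factors (0.60), with cells thinned to 2000 UMIs (0.63) and without mouse 3 (0.80), and stood at −0.09 without mouse 2, −0.08 with V3.1 libraries alone and −0.34 with at most 1 marker of another type, with adjusted p over the alternatives from 0.0127 to 0.912 by edgeR's test or DESeq2's, higher in 2 of 3 mice in the full data. In mouse 3 the monocyte markers were at 908 and 796 CPM in the border macrophages of its V3.0 and V3.1 libraries, and their part in the low value of that mouse was not tested. In neutrophils *Maf* fell by 4.57 against microglia, with a pooled ratio of 64.8 (46.1 to 94.1), and border macrophages exceeded neutrophils by 5.0, both in 3 of 3 mice.

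*Runx1* (ENSMUSG00000022952, chromosome 16, 92601466 to 92826149, minus strand) stood at 240, 276 and 276 CPM in the microglia of mice 1, 2 and 3, at 394, 128 and 353 CPM in border macrophages and at 40.4, 52.0 and 37.2 CPM in neutrophils. Border macrophages lay on both sides of microglia, and neutrophils were lowest in each mouse. The means were 292 ± 143 CPM in border macrophages, 264 ± 21.1 in microglia and 43.2 ± 7.82 in neutrophils (SD, n = 3), the first 2 of them within their spread. *Runx1* was not called between border macrophages and microglia, at −0.03, or 0.13 with RLE factors and 0.03 with library totals. In neutrophils it fell by 1.09 against microglia (SE 0.20, adjusted p = 1.94e-07 by edgeR's quasi-likelihood test, Benjamini-Hochberg adjusted, lower in 3 of 3 mice), and the pooled ratio of 6.07 (4.84 to 7.71) was the smallest among the factors that fell there. Border macrophages stood 1.06 above neutrophils in 3 of 3 mice (adjusted p = 0.0178 by edgeR's quasi-likelihood test, Benjamini-Hochberg adjusted, range 2.80e-09 to 0.960). The call was lost without the V3.0 library of mouse 3 (0.85), without mouse 1 (0.66) and without mouse 3 (0.89), and the value was −0.088 in V3.1 libraries alone.

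*Cebpa* (ENSMUSG00000034957, chromosome 7, 35119293 to 35121928, plus strand) encodes C/EBPα. It stood at 207, 256 and 195 CPM in the microglia of mice 1, 2 and 3, at 210, 85.1 and 177 CPM in border macrophages and at 13.5, 13.4 and 6.56 CPM in neutrophils. Border macrophages and microglia overlapped, and neutrophils were below both in every mouse. The means were 220 ± 32.4, 157 ± 64.7 and 11.1 ± 3.97 CPM (SD, n = 3). *Cebpa* fell by 2.75 in neutrophils against microglia, in 3 of 3 mice, with a pooled ratio of 19.2 (12.4 to 31.4), and its difference between border macrophages and microglia, −0.65, was not called. Border macrophages stood 2.10 above neutrophils in 3 of 3 mice (adjusted p = 0.00124 by edgeR's quasi-likelihood test, Benjamini-Hochberg adjusted, range 3.62e-08 to 0.411), a difference not called in 3 of 16 alternatives. These were without mouse 1 (1.96, adjusted p = 0.0618 by the same test, 3 of 3 mice in the full data), V3.1 libraries alone (1.82) and at most 1 marker of another type, where border macrophages had 0 *Cebpa* UMIs.

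Exons of *Lysmd4*, *Gm26626*, *Gm15655* and *Gm45091* lie on the opposite strand within *Mef2a*, *Runx1*, *Maf* and *Cebpa*. Cell Ranger by default counts reads in sense to a gene, the files do not state the setting used, and a part of such transcripts in the UMIs of these 4 factors was not tested. The other 5 factors overlapped no listed gene.

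The share of cells with at least 1 UMI was also read. In microglia 73.4% of cells had a *Sall1* UMI (55.5% after thinning to 2000 UMIs), 71.5% a *Spi1* UMI (53.0%), 80.7% an *Irf8* UMI (63.9%) and 97.0% a *Mef2c* UMI (89.9%). The thinned shares are over the 18283 microglia with at least 2000 UMIs. All 26 border macrophages and 282 neutrophils reached that depth. *Sall3* was seen in 35.5% (22.5%), *Cebpa* in 51.1% (34.7%), *Runx1* in 56.7% (39.1%), *Mef2a* in 93.9% (82.9%) and *Maf* in 95.2% (86.9%). With 19042 cells, exact Clopper-Pearson 95% intervals were narrow, 72.7% to 74.0% for *Sall1*. They cover counting error only.

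Border macrophages had a median depth close to that of microglia. *Sall1* and *Sall3* were found in 0 of 26 cells, where 3 cells would be 11.5% and the exact upper limit is 13.2%. *Maf* was found in 96.2% of them (80.4 to 99.9, thinned 92.3%), *Mef2c* in 88.5% (69.8 to 97.6, thinned 80.8%) and *Irf8* in 73.1% (52.2 to 88.4, thinned 53.8%). *Mef2a* was found in 69.2% (48.2 to 85.7, thinned 46.2%). These intervals cover counting error over 26 pooled cells and not the spread between mice, so they do not compare the types. In mice 1, 2 and 3 *Irf8* was found in 55.6%, 75.0% and 100% of border macrophages. *Mef2a* was found in 77.8%, 66.7% and 60.0% of them. Over all 26 cells *Spi1* was found in 65.4% (44.3 to 82.8, thinned 42.3%), *Runx1* in 57.7% (36.9 to 76.6, thinned 50.0%) and *Cebpa* in 38.5% (20.2 to 59.4, thinned 26.9%). Without the V3.0 library of mouse 3, *Maf* was found in 95.7% of 23 cells, *Mef2c* in 91.3%, *Irf8* and *Mef2a* each in 69.6%, *Spi1* in 60.9%, *Runx1* in 52.2% and *Cebpa* in 39.1%, and *Sall1* and *Sall3* in 0, with an exact upper limit of 14.8%.

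Neutrophils were deeper, and the neuronal gene *Snap25* gauged free RNA of other tissue at 0 of 282 of them, where 3 cells would be 1.06% and the exact upper limit is 1.3%, and at 0.205% of microglia (0.146 to 0.280). Other genes were found in more neutrophils, *Mbp* in 22.0%, *P2ry12* in 12.4% and *Gpr34* in 11.0%. *Sall1* was found in 1.77% of neutrophils (0.578 to 4.09, thinned 0%) and *Sall3* in 0.709% (0.0860 to 2.54, thinned 0%). These UMIs all came from mouse 2, and a part of free RNA in them was not tested. *Spi1* was found in 94.0% (90.5 to 96.4, thinned 63.1%). *Irf8* at 4.26% (2.22 to 7.32, thinned 2.48%), *Cebpa* at 6.38% (3.83 to 9.90, thinned 1.42%), and *Mef2c* and *Maf*, each at 7.45% (4.67 to 11.2, thinned 5.67% and 3.19%), were low. *Mef2a*, at 30.9% (25.5 to 36.6, thinned 12.8%), and *Runx1*, at 21.3% (16.6 to 26.5, thinned 8.16%), were higher.

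**Figure D2:**
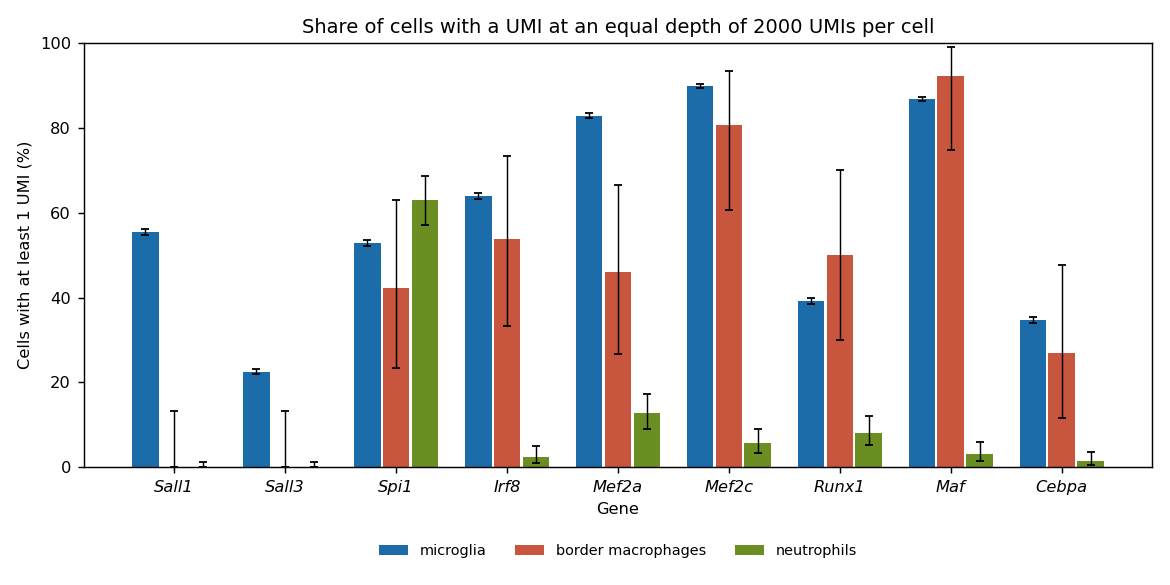
Percent of cells with at least 1 UMI of each factor (vertical axis) in microglia, border macrophages and neutrophils, as bars with exact Clopper-Pearson 95% intervals. Cells with at least 2000 UMIs were thinned to 2000, and shallower ones were left out. At this depth *Sall1* was found in 55.5% of microglia and in 0% of border macrophages and neutrophils, and *Spi1* in 63.1% of neutrophils.

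Single microglia usually carried several of the factors together. The median number found in a cell was 7 of 9 in microglia (5 after thinning), 5 in border macrophages (4), 4 in monocytes (2) and 2 in neutrophils (1). All 9 were found in 1149 microglia (6.03%) and none in 1 cell. These counts rise with depth, as the thinned values show.

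The kit comparison asks whether levels of the factors in microglia depend on the 10X chemistry. Over 3 V3.0 and 3 V3.1 libraries, edgeR called 0 of the 9 factors, where 3.01% of the 12053 tested genes were called. At an unadjusted p below 0.05 edgeR found 2 of the 9 factors, *Cebpa* and *Irf8*, where it found 3522 of the 12053 genes. By that share the factors did not stand out. DESeq2 called 0 factors, where it called 2.5% of all genes. The median log2 fold change was 0.01 over the factors and 0.00 over all genes. With the mouse as a block 545 genes were called in place of 363, and 0 factors.

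*Cebpa* stood at 240, 294 and 241 CPM with V3.0 and at 164, 213 and 186 CPM with V3.1 in the microglia of mice 1, 2 and 3. Every V3.1 value was below every V3.0 value. The means were 258 ± 30.7 and 188 ± 24.4 CPM (SD, n = 3 libraries), and on the log2 scale V3.1 differed by −0.45 (SE 0.11, adjusted p = 0.0160 by edgeR's quasi-likelihood test, Benjamini-Hochberg adjusted, lower in 3 of 3 mice), short of the fold threshold. Without the V3.0 library of mouse 3 it was −0.49 (adjusted p = 0.0367, same test, range over the alternatives 5.51e-07 to 0.0691), and blocking by mouse gave −0.45 (adjusted p = 6.64e-06 by the same test, 3 of 3 mice). In neutrophils, which held 20 *Cebpa* UMIs in all, V3.1 was also lower in 3 of 3 mice.

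*Irf8* stood at 577, 598 and 579 CPM with V3.0 and at 461, 486 and 525 CPM with V3.1 in the microglia of mice 1, 2 and 3. The kits did not overlap here either. The means were 584 ± 11.4 and 491 ± 32.2 CPM (SD, n = 3), a log2 difference of −0.23 (SE 0.07, adjusted p = 0.0427 by edgeR's quasi-likelihood test, Benjamini-Hochberg adjusted, lower in 3 of 3 mice), below the fold threshold. Blocking by mouse gave −0.24 (adjusted p = 0.00198 by the same test, 3 of 3 mice), and without the V3.0 library of mouse 3 it was −0.24 (adjusted p = 0.103, range 0.00198 to 0.250). *Maf* and *Mef2c* were higher with V3.1 in 3 of 3 mice and *Mef2a* lower in 3 of 3, none of them called, and the other 4 factors were mixed.

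**Figure D3:**
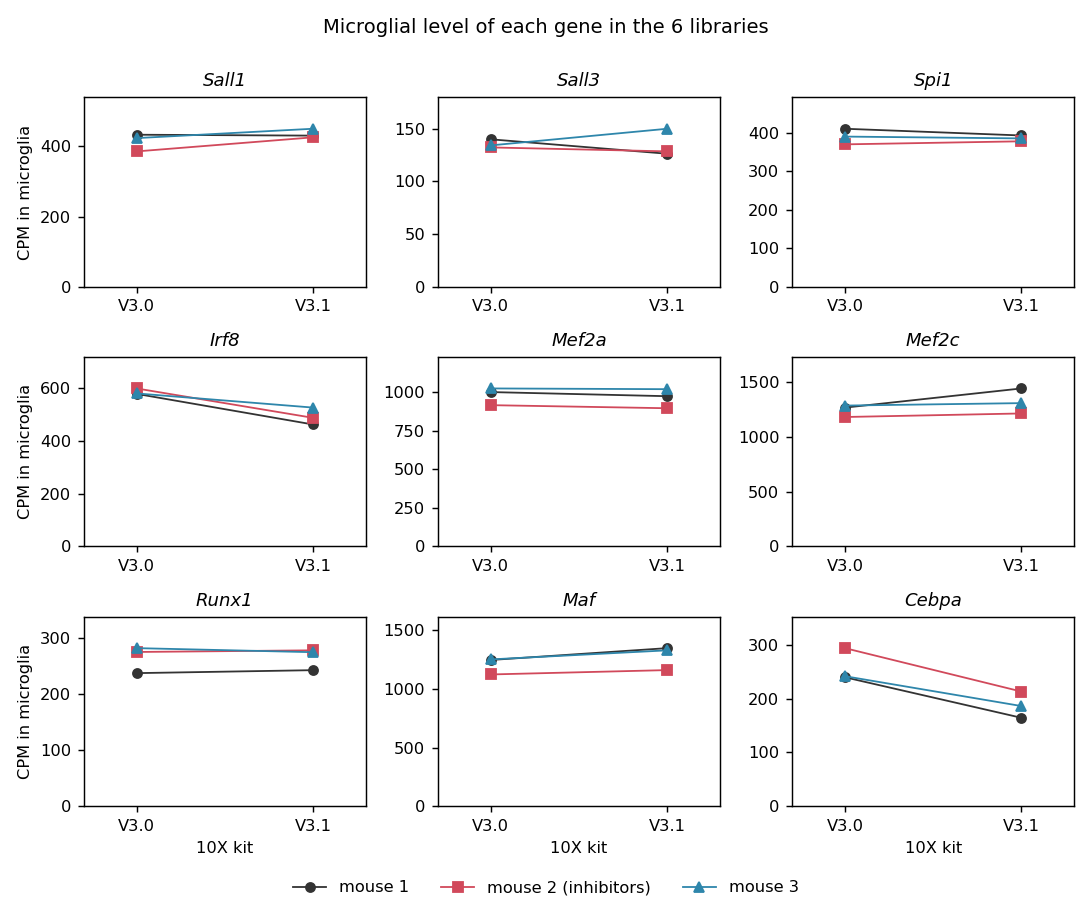
Level of each factor in microglia (CPM, vertical axis) by kit, V3.0 or V3.1, with 1 line per mouse. *Cebpa* and *Irf8* were lower with V3.1 in all 3 mice, by less than the fold threshold.

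Summed over the 9 factors, the level per library lay between 5182 and 5631 CPM in microglia, between 2953 and 5372 CPM in border macrophages and between 576 and 812 CPM in neutrophils. Microglial sums thus varied little between libraries, the shallow V3.0 library of mouse 3 included.

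The inhibitor comparison asks whether the cocktail goes with other levels in microglia. The spread came from the 2 NONE mice, and the lone INHIB mouse was assumed to vary like them. edgeR called 0 of the 9 factors, where 0.804% of the 13179 tested genes were called, and found 1 at an unadjusted p below 0.05, while DESeq2 called 0 factors. The median was −0.10 over the factors and −0.01 over all genes. The 1 factor was *Cebpa*, at 256 CPM in mouse 2 with the cocktail and 207 and 195 CPM in mice 1 and 3 without it. Mouse 2 was above both. The log2 fold change was 0.36 (SE 0.09, adjusted p = 0.0519 by edgeR's quasi-likelihood test, Benjamini-Hochberg adjusted, range over the alternatives 0.0202 to 0.999, 1 mouse above the other 2), and 0.39 without the V3.0 library of mouse 3. Set against mouse 1 alone it was 0.31 and against mouse 3 alone 0.39. Without its V3.0 library mouse 3 was represented by V3.1 alone, the kit with lower *Cebpa* in 3 of 3 mice, so the kits were then less balanced. *Sall1*, at 404 CPM in mouse 2, and *Mef2a*, *Mef2c*, *Maf*, *Spi1* and *Sall3* were below both NONE mice. *Irf8*, at 546 CPM in mouse 2, was above mice 1 and 3 at 528 and 534. *Runx1*, at 276.4 CPM, was also above them, at 239.6 and 275.9. These levels pooled the kits in unequal parts, 4122 V3.0 and 3334 V3.1 microglia in mouse 2 and 910 and 4592 in mouse 3. Within a kit not all orders held. With V3.1 *Irf8* was at 486 CPM in mouse 2 and 525 in mouse 3, and *Sall3* at 128 CPM in mouse 2 and 126 in mouse 1. With V3.0 *Runx1* was at 275 CPM in mouse 2 and 282 in mouse 3.

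The relatives of the factors, 40 genes of the same families or of neighboring roles, were read from the same fits. Of the 25 that could be tested between cell types, 12 were higher and 9 lower in neutrophils than in microglia, with a median of 0.50, where 29.8% and 35.9% of all genes were called and the median was −0.24. Among the higher ones *Cebpe*, which drives late granulocyte maturation, rose by 9.91 on the log2 scale, *Runx2* by 6.79, *Cebpd* by 2.44 and *Cebpb* by 1.41. By CPM *Cebpb* stood at 220, 460 and 275 in the neutrophils of mice 1, 2 and 3. It stood at 296, 406 and 285 CPM in their microglia, so it was higher in neutrophils in mouse 2 alone. *Irf7* rose by 3.74, *Ets2* by 2.61 and *Id2* by 2.59. The other higher ones were *Mafg* (1.29), *Irf1* (1.27), *Irf9* (1.06), *Ets1* (1.02) and *Irf2* (0.98), and these 5 and *Cebpb* turned to between −0.11 and −0.55 with library totals, where 6 relatives were higher and 13 lower, beside 11.8% and 74.8% of all genes. *Cebpe*, *Cebpd* and *Runx2* were higher under all 3 scalings, the opposite direction to *Cebpa* and *Runx1*. The genes that fell included *Bhlhe41* by 3.94, *Zeb2* by 3.41, *Irf5* by 2.93, *Mitf* by 2.86, *Tal1* by 1.73, *Mef2d* by 1.34, *Cebpg* by 1.15, and *Sall2*, which had 0 UMIs in neutrophils.

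Between border macrophages and microglia 1 relative was higher and 2 were lower of the 25, with a median of −0.51, close to the 4.64% and 6.38% of all genes called and their median of −0.53. Of the lower genes, *Ets1* had 0 UMIs in border macrophages, and the 1 higher gene was *Irf7*, whose call rested on 5 UMIs, all in mouse 2. Between border macrophages and neutrophils 4 relatives were higher (among them *Bhlhe41* by 3.43, *Zeb2* by 3.17 and *Irf5* by 2.24) and 8 lower, with a median of −0.55, where 12% and 22.4% of all genes were called and the median was −0.38. Of the lower ones *Cebpd* fell by 2.77, while *Mafg* (−1.57), *Irf2* (−1.52) and *Cebpb* (−0.97) turned to 0.02, 0.07 and 0.61 with library totals, and *Cebpe*, *Ets1*, *Id2* and *Ets2* had 0 UMIs in border macrophages. Between the kits edgeR called 0 of 27 tested relatives (median 0.01) and with the inhibitors 0 of 32 (median 0.07).

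Likeness across the 18 sums of library and cell type was measured by Pearson's r of levels, with 11438 genes compared, as a description only, since sums of 1 type share their cell type. The genes closest to *Sall1* were *Ppm1l* (r = 0.999), *Bcl9l* and *Atic*, and those closest to *Sall3* were *Trim36*, *Jmy* and *Bco2*. *Sall1* and *Sall3* had 0 UMIs in all border macrophage sums and in most neutrophil sums, so their r depends largely on which sums held 0. *Spi1* was closest to *Lims1* (r = 0.963), *Pbxip1* and *Gk*, and *Irf8* to *Pmepa1* (r = 0.984). The closest to *Mef2c* were *C1qb* (r = 0.976), *Malat1* and *Ctss*. *Runx1* was closest to *Gpr183* (r = 0.947), *Bcl2a1b* and *Hexa*, *Maf* to *Selenop* (r = 0.985), *Ntpcr* and *Bmyc*, and *Cebpa* to *Immt* (r = 0.978), *Snhg20* and *Pnn*. None of these genes was an assignment marker.

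Promoter sequences, the 250 bases before a gene's start, were matched for 6 of the 9 factors in RefSeq (GRCm38.p6), in 12 windows. Since *Sall1* had 0 UMIs in border macrophages and *Mef2a* was called lower there than in microglia in all alternatives, the window before the first listed start of each is shown, from chr8:89044163-89044412 (minus strand) for *Sall1* and chr7:67372859-67373108 (minus strand) for *Mef2a*, each read 5′ to 3′.
Sall1: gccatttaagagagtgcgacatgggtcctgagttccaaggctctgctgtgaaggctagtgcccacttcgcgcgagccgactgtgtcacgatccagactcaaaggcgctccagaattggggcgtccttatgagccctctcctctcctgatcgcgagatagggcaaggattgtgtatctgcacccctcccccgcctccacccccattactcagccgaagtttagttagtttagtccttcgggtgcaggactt
Mef2a: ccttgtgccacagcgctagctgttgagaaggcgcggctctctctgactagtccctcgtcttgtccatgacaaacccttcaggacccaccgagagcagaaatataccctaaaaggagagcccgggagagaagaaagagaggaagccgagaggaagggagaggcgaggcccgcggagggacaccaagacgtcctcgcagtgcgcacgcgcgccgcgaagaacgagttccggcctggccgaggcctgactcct
The words GAGGAAGT (ETS), GAAANNGAA (IRF), TGTGGTT (RUNX), CTAAAAATA (MEF2) and TTGCGCAA (C/EBP) were searched on both strands. None of the 12 windows held any of them. Of all 32851 windows 2.44%, 7.13%, 4.40%, 0.469% and 0.164% held the words in that order. The absence says only that these letters are not in these windows.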

How the data were processed

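The authors deposited, for each of the 6 libraries, UMI counts per gene and cell barcode from Cell Ranger 5.0.0 on GRCm38/mm10, without normalization. A barcode passed with between 1000 and 4000 genes, no more than 12000 UMIs and a mitochondrial share up to 15%. Cell types were assigned by 5 lists of 8 markers as described with the results. The 9 factors, the marker lists and the list of 40 relatives were chosen with earlier results of these data known. The 9 factors were always named, relatives where called, and for each factor the 3 genes with the highest r among genes with at least 100 UMIs (pseudocount 1). Some results under these rules are not reported here. Levels are CPM of UMI sums. Libraries of a mouse were paired by their labels, and the pairing was checked over 500 genes (r of 0.426, 0.553 and 0.254 in mice 1, 2 and 3). Sums were tested by edgeR's quasi-likelihood test (TMM factors, filterByExpr, two-sided, Benjamini-Hochberg over all tested genes), and called at adjusted p under 0.05 with a log2 fold change over 0.58 in size. A type without UMIs was set at a floor of 3 UMIs over the type. Thinning to 2000 UMIs used seed 1 and left out cells with fewer UMIs. Alternatives were DESeq2, RLE factors, no filter, 4 of 8 markers, at most 1 marker of another type, at least 500 genes per cell, thinned cells, the mouse block added or dropped, 1 kit alone, and leaving out each mouse or the V3.0 library of mouse 3. Library totals with no scaling factor, the larger UMI sum and, for the inhibitors, leaving out that library were added after seeing the data. Fits ran in R 4.3.3 with DESeq2 1.42.0, edgeR 4.0.16 and limma 3.58.1, and all else in Python 3.11.15 with pandas 2.3.3, scipy 1.17.1, numpy 2.4.6 and matplotlib 3.10.9.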

Additional observations from a re-analysis of the deposited data

Results flagged for a closer look

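Values of 40 groups of 6 libraries were examined for a library far from the others by Dixon's test, which chance alone passes in about 1 of 20 groups, and 4 did. *Sall3* stood at 5.84 CPM in the neutrophils of the V3.1 library of mouse 2 and at 0 in the other libraries, and 3.57% of those neutrophils had a *Sall3* UMI. Both values rest on 2 UMIs. The V3.0 library of mouse 3 had 21.5% of barcodes passing and a median of 809 UMIs per barcode.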

How the results depend on the processing

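Between neutrophils and microglia the 9 factors kept their direction in all 16 alternatives, and their calls too, except *Spi1* with library totals. The 9 factors were not called between kits in 13 alternatives or with the inhibitors in 9.

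With at most 1 marker of another type, 170 of 3693 tested genes were called for border macrophages against microglia (4.6%), 815 (22.1%) for border macrophages against neutrophils and 2385 (64.6%) for neutrophils against microglia, where 855 (11%), 2669 (34.4%) and 5099 (65.7%) of 7756 are reported. With thinned cells they were 483, 1363 and 2790 of 4146 (11.6%, 32.9% and 67.3%), and with V3.0 libraries alone 514, 1589 and 3017 of 5031 (10.2%, 31.6% and 60%), so these counts fell mainly with the genes tested. With V3.1 libraries alone they were 369 for border macrophages against microglia and 1564 against neutrophils, of 5894 (6.26% and 26.5%). Leaving out a mouse or the V3.0 library of mouse 3 gave 493 to 570 genes for border macrophages against microglia (6.42% to 6.97%). With the inhibitors, 106 genes became 20 by DESeq2, 43 with library totals and 1 with V3.0 libraries alone. Between the kits, 363 became 545 with the mouse as a block and 157 to 402 with a mouse or library left out.

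Of the factors, 5 were called between border macrophages and microglia. This became 2 with at most 1 marker of another type, 1 by DESeq2, and 3 by the larger UMI sum, with library totals and with V3.1 libraries alone, and 3 to 4 with a mouse or library left out. Of all genes 4.6%, 9.4%, 16.5%, 10.4% and 6.26% were called in these settings, in that order, and 6.42% to 6.97% with a mouse or library left out. The 5 factors include *Sall1* and *Sall3*, whose calls compare with a count of 0. Of the others, *Mef2a* was called in all 16 alternatives, *Mef2c* in 6 and *Irf8* in 3. *Maf*, not among the 5, was called in 3. Between border macrophages and neutrophils 7 became 3 with at most 1 marker of another type, 4 with V3.1 libraries alone, and 4 to 7 with a mouse or library left out. Of all genes 22.1%, 26.5% and 23.7% to 30.2% were called in these settings. In this comparison *Mef2a* turned to −0.88 with at most 1 marker of another type and *Runx1* to −0.088 with V3.1 libraries alone. The cause was not tested. Dropping the mouse block left 862, 2762 and 5244 genes and 5, 7 and 9 factors in the order of these comparisons.

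The 26 border macrophages limit what can be said of that type, and 5 came from mouse 3. Where a type had 0 UMIs, values are bounds that depend on depth. *Sall1* and *Sall3* gave no value between border macrophages and neutrophils. Leaving out a NONE mouse left no spread for the inhibitor comparison, so those values carry no test.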
